A study of Mus musculus with 6 samples.

Results

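The cells described here are all kept cells of 2 single-cell RNA libraries of 26-week-old mouse dorsal skin, 1 left untreated and 1 exposed to PBMC-sec. They number 11503 of the 34834 kept cells of the series, which also holds an 8-week pair of 14696 and a 52-week pair of 8635 cells. Barcodes with fewer than 500 UMIs (unique molecular identifiers, each counting 1 captured transcript), fewer than 300 genes or over 10% of UMIs from mitochondrial genes were left out. The kept cells were then sorted into broad lineages by summed marker genes, and the treated library was set beside the untreated one within each lineage.

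Both groups were male wild-type C57BL/6 mice, an inbred laboratory strain, aged 26 weeks, and each library pooled whole dorsal skin of 3 animals. Skin of the untreated group went straight into enzymatic dissociation. Skin of the PBMC-sec group was first held outside the body with PBMC-sec, the factors that blood mononuclear cells release after γ-irradiation, then dissociated with the same kit. Dose and duration of the exposure were not analysed here, and whether the groups shared animals is not stated. Holding skin outside the body and exposing it to PBMC-sec therefore cannot be told apart. With 1 library a side there is no replicate, so no test was made: each interval below is a 95% interval that covers counting error only, and it says nothing about the spread between mice.

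PBMC-sec is the mixture of proteins, lipids and vesicles that dying blood mononuclear cells release, and it has been studied as a topical agent for wounds. Skin senses injury and foreign nucleic acid through pattern receptors, which switch on type I interferons. Interferon bound to its receptor activates a transcription factor complex that binds a short DNA motif, the interferon-stimulated response element, before a large set of antiviral genes. A pair of further programmes matters below: NFAT5 targets answer a rise in salt or osmotic pressure, and NRF2 targets answer oxidants and electrophiles.

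The untreated library held 5766 barcodes, of which 5579 were kept with 19801586 UMIs, a median of 2211 UMIs and 1012 genes per cell. The PBMC-sec library held 6182 barcodes, of which 5924 were kept with 32123723 UMIs, a median of 3493.5 UMIs and 1316.5 genes. Treated cells were deeper in keratinocytes (medians of 2580 and 4738 UMIs), fibroblasts (2272.5 and 3398) and pericytes or smooth muscle cells (1207 and 1822), and values below are therefore given as UMIs per 1000000 of the lineage's own sum (CPM). The pair shared 46 kept barcodes. Barcodes were also searched for fine clusters whose profiles differed little beyond counting noise (a Pearson dispersion of at most 2, where 1 is counting noise alone). Neither 26-week library held any, with lowest dispersions of 2.12 and 2.15, while 46.71% of the kept barcodes of the 8-week untreated library fell in such clusters. Values of the 8-week pair stand beside those of the 26-week pair with that limit.

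Promoters of interferon response genes are shown first, since these genes gave the most widespread difference. The motif GAAA, then any 2 bases, then GAAA, searched on both strands in the 200 bases before each gene's start, was present in 7 of the 20 listed interferon-response genes matched by symbol (35%), against 2.327% of 27025 mouse promoters of the same length. Promoter sequences are those of RefSeq on GRCm38.p6, in lower case 5′ to 3′ along the gene's strand, with the motif in capitals. Overlapping matches are merged in the capitals, and a match is a description of the letters, not a measured binding site. The 5 genes below were chosen among the 7 with the motif. Irf7, Cxcl10, Ifi44 and Ifitm3, also of the list, had no match in this window. They lie at chr19:34583329-34583528, forward strand (Ifit3), chr19:34640689-34640888, forward strand (Ifit1), chr4:156200819-156201018, reverse strand (Isg15), chr8:71537473-71537672, reverse strand (Bst2) and chr12:26456453-26456652, reverse strand (Rsad2).
Ifit3: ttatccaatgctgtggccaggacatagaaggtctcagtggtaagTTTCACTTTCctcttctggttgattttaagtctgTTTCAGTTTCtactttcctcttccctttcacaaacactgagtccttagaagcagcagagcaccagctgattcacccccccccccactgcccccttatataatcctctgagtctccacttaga
Ifit1: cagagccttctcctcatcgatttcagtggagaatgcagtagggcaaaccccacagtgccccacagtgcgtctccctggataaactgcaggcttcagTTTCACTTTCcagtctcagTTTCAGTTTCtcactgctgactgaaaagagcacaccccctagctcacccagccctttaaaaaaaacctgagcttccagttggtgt
Isg15: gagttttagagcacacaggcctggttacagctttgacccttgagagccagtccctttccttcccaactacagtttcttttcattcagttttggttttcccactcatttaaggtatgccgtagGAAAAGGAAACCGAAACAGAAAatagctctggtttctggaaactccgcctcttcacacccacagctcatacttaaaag
Bst2: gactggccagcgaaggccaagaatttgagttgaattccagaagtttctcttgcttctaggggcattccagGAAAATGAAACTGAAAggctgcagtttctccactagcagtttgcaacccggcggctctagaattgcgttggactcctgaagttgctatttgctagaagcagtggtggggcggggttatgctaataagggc
Rsad2: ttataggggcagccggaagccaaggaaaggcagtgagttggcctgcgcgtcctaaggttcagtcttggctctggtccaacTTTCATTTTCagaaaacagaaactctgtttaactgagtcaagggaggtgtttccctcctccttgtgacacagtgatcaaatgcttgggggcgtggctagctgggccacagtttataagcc

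The antioxidant response element TGACNNNGC, the core letters bound by NRF2, was present in 4 of 17 matched NRF2-list promoters (23.53%), against 8.611% of all 27025. The promoters of Prdx1 (chr4:116685399-116685598, forward strand) and Gclm (chr3:122245357-122245556, forward strand) are shown because these genes had the motif and were among those higher with PBMC-sec. Nqo1 and Slc7a11 (higher in fibroblasts), Srxn1 (in vascular endothelial cells) and Gpx2 (in keratinocytes), also of the list, had no match in this window.
Prdx1: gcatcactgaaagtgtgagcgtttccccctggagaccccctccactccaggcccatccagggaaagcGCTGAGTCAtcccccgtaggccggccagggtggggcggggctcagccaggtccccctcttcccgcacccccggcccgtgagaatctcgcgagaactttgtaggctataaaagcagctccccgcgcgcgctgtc
Gclm: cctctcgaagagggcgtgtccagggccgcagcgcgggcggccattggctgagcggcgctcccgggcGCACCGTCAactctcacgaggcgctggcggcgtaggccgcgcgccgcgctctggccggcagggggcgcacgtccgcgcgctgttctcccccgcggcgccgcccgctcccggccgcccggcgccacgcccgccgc

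Keratinocytes, the epithelial cells of epidermis and hair follicles, made up 3330 of 5579 untreated cells (59.7%, exact interval 58.4 to 61.0%) and 3914 of 5924 treated cells (66.1%, 64.8 to 67.3%). Fibroblasts, which build the dermal matrix, made up 1144 (20.5%, 19.5 to 21.6%) and 940 (15.9%, 14.9 to 16.8%). The share of keratinocytes in the treated library was thus 1.11 times that in the untreated one (1.06 to 1.16), and that of fibroblasts 0.774 times (0.709 to 0.844). For the rarer lineages the interval of the ratio included 1. They were T or innate lymphoid cells (161 and 148 cells), dendritic or Langerhans cells (121 and 100), vascular endothelial cells (83 and 80), macrophages (55 and 54), pericytes or smooth muscle cells (18 and 32) and skeletal muscle cells (18 and 22). Macrophages, the subject named in the series title, were 0.986% and 0.912% of cells. Cells with markers of several lineages (239 and 229) and cells under the marker minimum (392 and 382) stayed out of every lineage.

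At 52 weeks the ratios were 1.14 (1.07 to 1.21) for keratinocytes and 0.737 (0.67 to 0.811) for fibroblasts. The 8-week pair gave 0.821 (0.788 to 0.854) and 2.62 (2.35 to 2.92), and 0.899 and 1.45 without the near-identical barcodes. In bulk shares such as these, fewer cells of a type and a different yield of dissociation cannot be told apart.

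**Figure D1:**
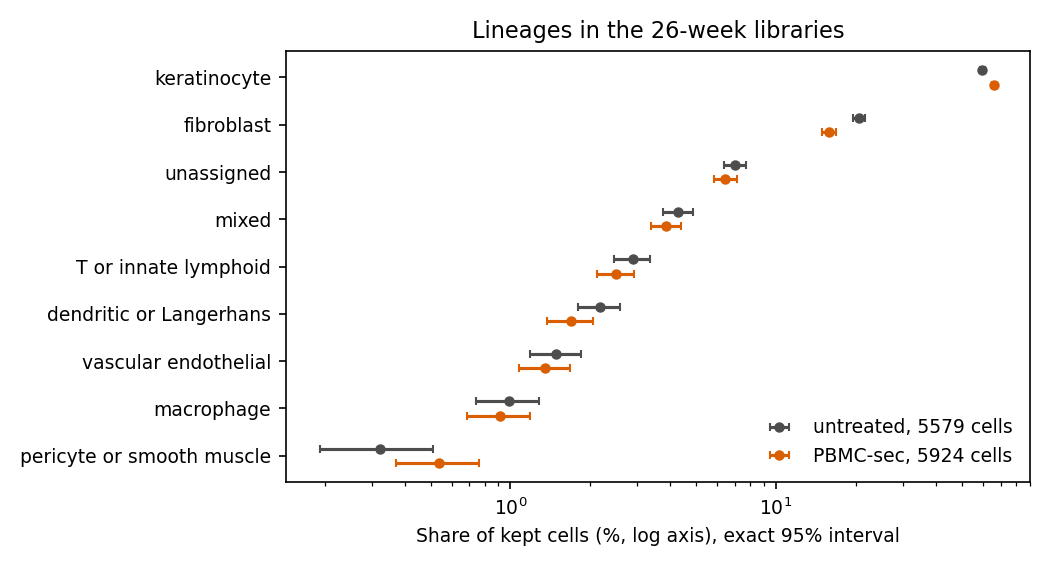
Share of kept cells per lineage (x axis, percent on a log scale) in the untreated (grey, 5579 cells) and PBMC-sec (orange, 5924 cells) 26-week libraries, with exact 95% intervals. Keratinocytes lie higher with PBMC-sec (59.7 and 66.1%) and fibroblasts lower (20.5 and 15.9%), while the intervals of the rarer lineages overlap.

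Marker sums are given for each lineage. The same markers set the labels, so these sums describe the lineages and are no independent check. In each lineage but the pericyte or smooth muscle one, the lineage's own markers had the highest summed level among all marker classes in both libraries. In the 18 untreated pericytes or smooth muscle cells the keratinocyte markers summed to 4208 CPM and the lineage's own to 3189. Keratinocyte transcripts were present in every other lineage, at 2656 CPM summed in untreated fibroblasts and 7236 CPM in untreated T or innate lymphoid cells, and stood lower in the treated library in each of them. A gene is called prone to free RNA where its level over all other cells of the library exceeded 5 times its level in the lineage. Of the 31 clusters formed independently of the lineages, 7 took at least 90% of their cells from 1 library (5 of keratinocytes, 2 of fibroblasts), and these 7 held 2753 of the 11503 cells (23.93%). Lineage taken from clusters, named by the same markers, matched the label of 84.53% of cells.

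The most widespread difference was a lower level of type I interferon response genes with PBMC-sec. A gene was compared in a lineage where both sums together held at least 20 UMIs, and is called lower or higher where the ratio passed 2-fold. In fibroblasts 22 of the 25 list members were lower and 0 higher, with a median log2 ratio of -1.93, against 3.69% lower among all 10192 genes compared and a median of 0.07. In vascular endothelial cells 14 of 19 were lower (median -2.25), against 9.18% of 3528 genes. Macrophages had 13 of 15 lower (median -2.16), against 11.1% of 1168 genes. Keratinocytes had 17 of 22 lower (median -1.31), against 9.11% of 12803 genes. Dendritic or Langerhans cells had 8 of 14 lower (median -1.52), against 8.45% of 3289 genes. In T or innate lymphoid cells 0 of 5 compared members were lower or higher (median 0.02), against 5.26% lower of 3254 genes. No list member in any of these lineages was higher past 2-fold. Thinned to 1000 UMIs per cell, the medians were -0.87 in vascular endothelial cells and -1.41 in macrophages.

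Summed over the list, the interferon genes of macrophages stood at 26415 CPM in the untreated and 7314 CPM in the treated library, a ratio of 0.277 (0.254 to 0.302). The same sum was 10676 and 6472 CPM in fibroblasts, 10837 and 5598 CPM in vascular endothelial cells, 3332 and 963 CPM in dendritic or Langerhans cells, and 1596 and 1064 CPM in keratinocytes. T or innate lymphoid cells had 1245 and 1023 CPM (0.822, 0.676 to 0.999). Macrophages thus carried the highest summed level among these lineages in both libraries.

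**Figure D2:**
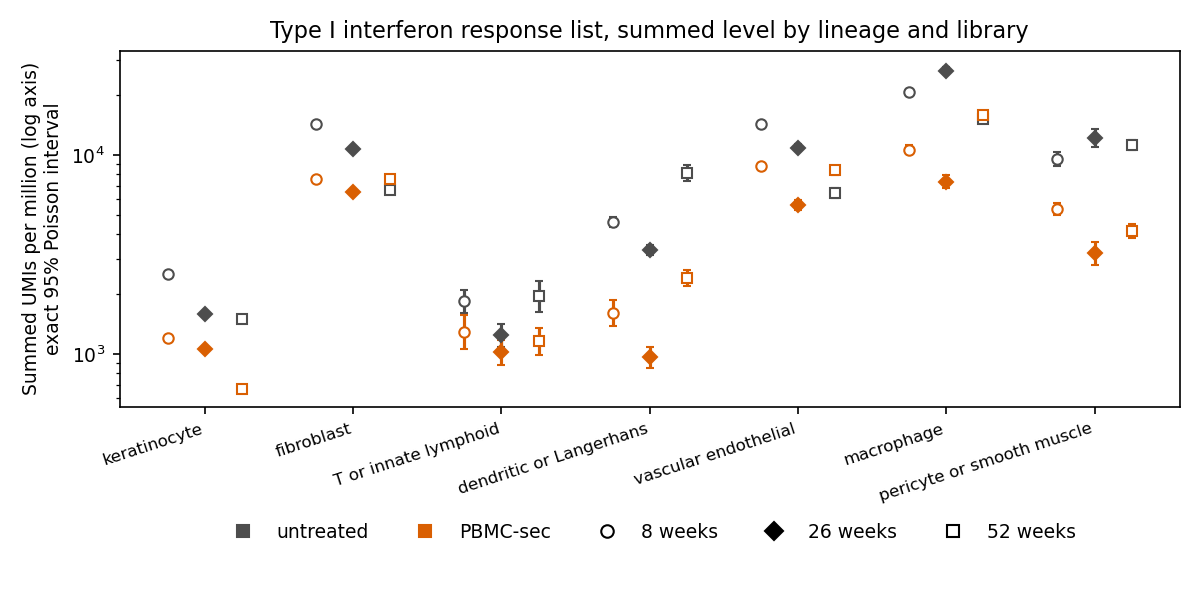
Summed level of the type I interferon list (CPM, y axis, log scale) by lineage (x axis), for untreated (grey) and PBMC-sec (orange) libraries at 8 (circles), 26 (filled diamonds) and 52 weeks (squares), with exact 95% Poisson intervals. At 26 weeks every treated diamond lies below its untreated one, from 26415 and 7314 CPM in macrophages to 1245 and 1023 CPM in T or innate lymphoid cells.

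Among the members, the ubiquitin-like modifier Isg15 (ENSMUSG00000035692, chr4:156199424-156200818, GRCm38) stood at 5974 CPM in untreated and 1752 CPM in treated macrophages (ratio 0.293, 0.245 to 0.350). In fibroblasts Isg15 was 1080 and 284 CPM (0.263, 0.245 to 0.282), in vascular endothelial cells 1152 and 188 CPM (0.163, 0.113 to 0.229), and in dendritic or Langerhans cells 1302 and 188 CPM (0.144, 0.105 to 0.193). Its level was thus lower with PBMC-sec in all 4 lineages, and highest in macrophages in both libraries. Bst2, which tethers budding virus to the cell surface (chr8:71534255-71537456), stood at 1570 and 431 CPM in fibroblasts, 1078 and 154 CPM in vascular endothelial cells and 1407 and 246 CPM in macrophages. In T or innate lymphoid cells Bst2 was 432 and 498 CPM (1.15, 0.847 to 1.57).

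Ifit3, one of the tetratricopeptide proteins that bind foreign RNA (chr19:34583531-34588731), stood at 163 and 11.7 CPM in fibroblasts (0.0719, 0.0514 to 0.0982) and at 486 and 20.5 CPM in macrophages. In vascular endothelial cells Ifit3 had 52 UMIs in 28 untreated cells and 0 UMIs in treated cells, at least 15.6-fold lower with 0 set to 3 counts over the lineage. Its neighbour Ifit1 was 67.5 and 11.4 CPM in fibroblasts and 2098 and 328 CPM in macrophages. Irf7, the transcription factor that amplifies interferon production (chr7:141262706-141266481), was 367 and 78.3 CPM in fibroblasts (0.214, 0.187 to 0.243), 261 and 19.3 CPM in vascular endothelial cells and 384 and 113 CPM in macrophages. Each of these genes was thus several-fold lower in the treated cells of each lineage named.

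The chemokines Cxcl10 and Cxcl9, which attract T cells, followed in fibroblasts. Cxcl10 was 152 and 12.5 CPM (0.0825, 0.0596 to 0.112) and Cxcl9 28.1 and 2.45 CPM (0.0872, 0.0386 to 0.173). In macrophages Cxcl10 was 2533 and 389 CPM. The listed members that were not lower past 2-fold in fibroblasts were Ifitm3, which blocks viral entry (5413 and 5154 CPM), Irf1 (63.1 and 66.4 CPM) and Irf9 (32.5 and 18.8 CPM).

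Interferon beta itself, Ifnb1, was compared in macrophages only, where it stood at 959 CPM (75 UMIs in 18 cells) untreated and 82.0 CPM (8 UMIs in 2 cells) treated, a ratio of 0.0854 (0.0356 to 0.177). The largest cell held 36% of the untreated UMIs. In keratinocytes many interferon members were prone to free RNA. Of those that were not, Ifi35 stood at 51.2 and 19.4 CPM, the RNA sensor Ifih1 at 18.3 and 7.20 CPM, and Irf9 at 31.3 and 14.4 CPM.

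The interferon genes at the other ages are given side by side, without a test of a difference between ages. At 8 weeks 23 of 25 members were lower in fibroblasts (median -2.17, against 5.04% of all genes lower), 16 of 21 in vascular endothelial cells (-2.13, against 5.04%) and 11 of 18 in macrophages (median log2 ratio -1.15, against 12.7%). At 52 weeks 5 of 25 were lower in fibroblasts (median -0.40, against 13% of all genes) and 0 of 25 in macrophages (-0.19, against 5.6%). The vascular endothelial cells of that age had 1 of 12 lower, against 8.7% of all genes, and 2 higher (-0.04), while keratinocytes had 20 of 24 lower in a comparison in which 31.4% of all genes were lower. Isg15 in macrophages was 3816 and 1989 CPM at 8 weeks, and 3009 and 3463 CPM at 52 weeks. Bst2 in fibroblasts was 2096 and 467 CPM at 8 weeks, and 856 and 803 CPM at 52 weeks.

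Antigen presentation through MHC class I, which interferon also raises, stood lower in part. In fibroblasts 6 of 14 members were lower (median log2 ratio -0.60), against 3.69% of all genes, among them the immunoproteasome subunits Psmb8 (176 and 80.3 CPM), Psmb9 (39.1 and 9.52 CPM) and Psmb10 (126 and 42.7 CPM) and the peptide transporter Tap1 (51.1 and 17.7 CPM). Thinned to 1000 UMIs per cell, 1 of 13 was lower in fibroblasts, and the ratios were 0.595 for Psmb8, 0.582 for Psmb10 and 0.501 for Tap1. In vascular endothelial cells 4 of 11 were lower (median -0.44), against 9.18% of all genes, and thinned 1 of 9. In keratinocytes 2 of 14 were lower (median -0.29), against 9.11%, Psmb9 (61.3 and 30.4 CPM, ratio 0.560 with TMM scaling) and Tap2 (66.7 and 31.1 CPM, 0.691 in suprabasal cells). In T or innate lymphoid cells 0 of 11 members passed 2-fold and 9 of 11 had a ratio above 1.

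The osmotic stress list had members higher past 2-fold in several lineages. Akr1b3, the aldose reductase that makes the osmolyte sorbitol (ENSMUSG00000001642, chr6:34302434-34317478), stood at 28.4 CPM in untreated and 500 CPM in treated keratinocytes, a ratio of 17.6 (15.9 to 19.4). Its UMIs were present in 329 of 3330 and 1814 of 3914 keratinocytes. In fibroblasts Akr1b3 was 77.6 and 583 CPM (7.51, 6.58 to 8.61), in macrophages 141 and 1444 CPM (10.3, 5.57 to 21.0), in vascular endothelial cells 82.6 and 482 CPM (5.83, 3.55 to 10.1), and in T or innate lymphoid cells 63.3 and 145 CPM (2.29, 1.12 to 4.95). The treated level thus lay between 145 and 1444 CPM in these 5 lineages, and the untreated level between 28.4 and 141 CPM. In keratinocytes of the other pairs Akr1b3 was 28.2 and 780 CPM at 8 weeks and 26.7 and 730 CPM at 52 weeks.

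Fxyd2, the regulatory gamma subunit of the sodium pump, was 1.89 and 34.8 CPM in fibroblasts (18.4, 8.23 to 51.1), 230 and 1045 CPM in macrophages (4.54, 2.73 to 7.96) and 19.5 and 294 CPM in dendritic or Langerhans cells (15.1, 6.63 to 42.3). In fibroblasts all 11 compared members of the osmotic list had a ratio above 1 and 4 were higher past 2-fold (median log2 ratio 0.65), against 4.53% higher of all genes. Beside Akr1b3 and Fxyd2 these included the chaperone Hspa4l (69.1 and 298 CPM, 4.32, 3.73 to 5.02). In keratinocytes 4 of 12 were higher, against 3.26% of all genes, and 1 lower (median 0.25). Thinned, 1 of 9 was higher there and the median was 0.05. Beside Akr1b3 they included the betaine transporter Slc6a12, with 0 and 32 UMIs, and the kinase Sgk1 (23.4 and 48.6 CPM), whose ratio with every cell weighted equally was 1.85. In vascular endothelial cells 4 of 9 were higher, against 4.79% of all genes, including the taurine transporter Slc6a6 (39.1 and 116 CPM) and the inositol transporter Slc5a3 (39.1 and 96.4 CPM). The Slc6a6 ratio was 1.69 without cells high for the unfolded protein response, and the Slc5a3 ratio 1.49 with lineage taken from clusters.

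NRF2 targets stood higher in part. Summed over the list, the ratio was 1.84 (1.78 to 1.91) in vascular endothelial cells, 1.455 (1.411 to 1.502) in macrophages, 1.447 (1.393 to 1.503) in T or innate lymphoid cells, 1.288 (1.279 to 1.297) in fibroblasts and 1.054 (1.046 to 1.062) in keratinocytes. It was 1.28 (1.14 to 1.44) in pericytes or smooth muscle cells. In dendritic or Langerhans cells it was 1.013, with an interval that included 1 (0.982 to 1.045). Such sums weigh abundant members most, and in keratinocytes the most abundant was the ferritin gene Fth1. In fibroblasts 21 of 22 had a ratio above 1 and 4 were higher past 2-fold (median log2 ratio 0.61), against 4.53% of all genes. The quinone reductase Nqo1 was 50.8 and 294 CPM (5.80, 4.91 to 6.88), the peroxidase Prdx1 2026 and 5360 CPM (2.64, 2.57 to 2.72), the cystine transporter Slc7a11 145 and 313 CPM (2.15, 1.93 to 2.40) and the glutathione transferase Gsta4 158 and 375 CPM (2.38, 2.14 to 2.64). Thinned to 1000 UMIs per cell, Gsta4 had a ratio of 1.37, and with every cell weighted equally Slc7a11 had 1.84. In vascular endothelial cells 16 of 18 had a ratio above 1 and 5 were higher past 2-fold (median 0.77), against 4.79% of all genes. There the haem-degrading enzyme Hmox1 was 1639 and 4582 CPM (2.79, 2.48 to 3.16), and both subunits of the enzyme that starts glutathione synthesis were higher, Gclc at 161 and 482 CPM and Gclm at 461 and 1002 CPM, with a thinned ratio of 1.85 for Gclm. In fibroblasts Hmox1 was 1023 and 996 CPM (0.974, 0.929 to 1.02), and in macrophages 2290 and 2397 CPM, so the Hmox1 ratio past 2-fold was that of endothelial cells. In macrophages 14 of 16 list members had a ratio above 1, with 3 higher, against 6.85% of all genes, and 1 lower (median 0.47). Dendritic or Langerhans cells had 0 of 15 higher, against 6.26% of all genes, and 1 lower, against 8.45% (median -0.13).

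H1f0 and Hist1h1c are linker histones, which bind the DNA between nucleosomes, and were chosen after their values were seen. H1f0 was 56.8 and 321 CPM in fibroblasts (5.65, 4.83 to 6.65), 61.8 and 434 CPM in dendritic or Langerhans cells (7.02, 4.30 to 12.1), 185 and 755 CPM in T or innate lymphoid cells (4.09, 2.81 to 6.11) and 89.5 and 522 CPM in macrophages (5.83, 2.64 to 15.2). In keratinocytes H1f0 was 169 and 339 CPM (2.01, 1.92 to 2.10) and Hist1h1c 64.8 and 103 CPM (1.58). Hist1h1c was 20.5 and 125 CPM in fibroblasts, 26.0 and 298 CPM in dendritic or Langerhans cells and 227 and 830 CPM in T or innate lymphoid cells. Both histones were higher past 2-fold in each of these 3 lineages.

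**Figure D3:**
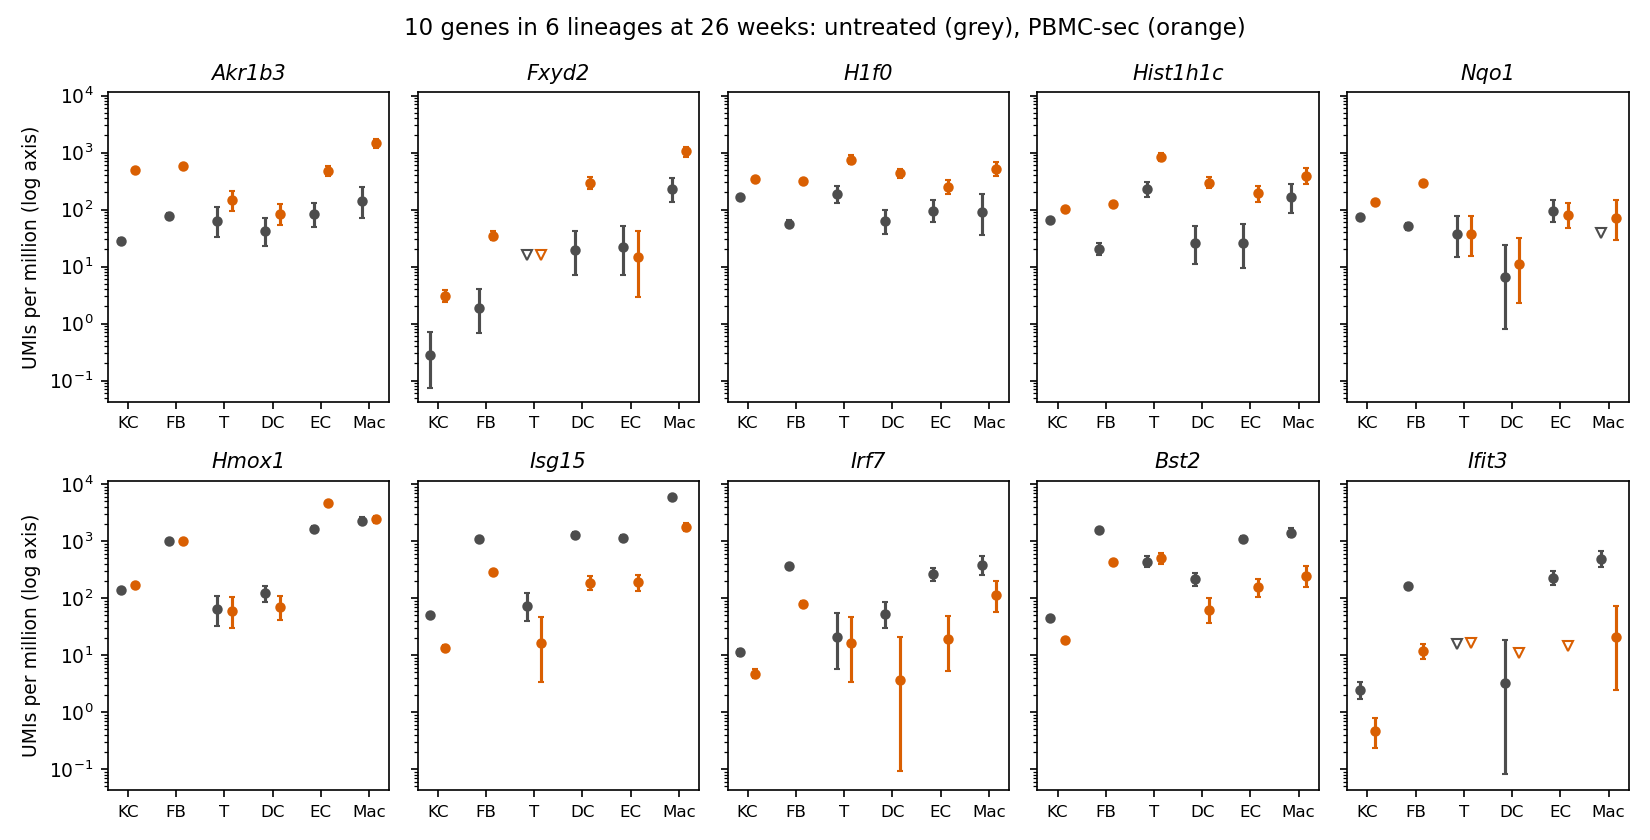
Level of 10 genes (CPM, log axis, exact 95% Poisson interval) in keratinocytes (KC), fibroblasts (FB), T or innate lymphoid cells (T), dendritic or Langerhans cells (DC), vascular endothelial cells (EC) and macrophages (Mac) of the untreated (grey) and PBMC-sec (orange) 26-week libraries, where open triangles mark 0 UMIs drawn at the floor of 3 counts. Akr1b3 lies higher with PBMC-sec in each of the 6 lineages (28.4 and 500 CPM in keratinocytes), and Isg15 lies lower in each of them (5974 and 1752 CPM in macrophages). In dendritic or Langerhans cells Akr1b3 had 13 and 23 UMIs and a ratio interval of 0.971 to 4.30. In T or innate lymphoid cells Isg15 had 14 and 3 UMIs, too few to be compared. Akr1b3 in dendritic or Langerhans cells and Isg15 in keratinocytes were prone to free RNA.

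In keratinocytes 417 of 12803 genes were higher and 1166 lower (9.11%), with a median log2 ratio over all genes of -0.18. Rescaling by TMM, which sets the bulk of genes equal between the sums, shifts every keratinocyte log2 ratio by 0.176, and every vascular endothelial one by 0.105. In the other lineages that shift lies between -0.07 and 0.07.

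The keratinocyte genes with the lowest ratios included retinoid and alcohol dehydrogenases. Adh6a (chr3:138313286-138331134) had 391 UMIs in 91 untreated cells and 6 UMIs in 6 treated cells, 27.1 and 0.230 CPM (0.00849, 0.0031 to 0.0187). Its neighbour in function Adh1, an alcohol and retinol dehydrogenase, was 8.10 and 0.345 CPM. The membrane serine protease Tmprss11g was 31.5 and 1.72 CPM, the whey acidic protein inhibitor Wfdc12 42.6 and 2.53 CPM, the threonine dehydrogenase Tdh 11.9 and 1.26 CPM and the kinase Prkcq 4.91 and 0.575 CPM. Dapl1, a gene of early differentiating epithelium, was 118 and 13.1 CPM (0.111, 0.0984 to 0.125), with UMIs in 570 and 202 cells. Chil1, a chitinase-like protein, was 78.8 and 9.42 CPM, Slc16a6 4.57 and 0.306 CPM and the metalloprotease Tll1 6.44 and 0.689 CPM. Il17c had 68 and 0 UMIs, of which 81% came from 1 untreated cell. All of these genes except Il17c, which had too few UMIs at 8 weeks, were also lower past 2-fold in the 8-week and the 52-week pair. Of all keratinocyte genes compared in those pairs, 8.59% were lower at 8 weeks and 31.4% at 52 weeks. Of all genes lower at 26 weeks, 461 of 1126 measured were lower past 2-fold at 8 weeks and 860 of 1068 at 52 weeks. Being lower at 52 weeks is thus not particular to the genes named.

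Genes that join basal keratinocytes to the basement membrane stood lower in part. Col17a1, the hemidesmosomal collagen (chr19:47646344-47692094), was 1618 and 589 CPM (0.364, 0.357 to 0.372), its partner Itgb4 398 and 196 CPM (0.492, 0.474 to 0.511) and the anchoring fibril collagen Col7a1 15.2 and 6.13 CPM (0.403, 0.326 to 0.496). These 3 were the members past 2-fold of 17 on the basement membrane list (median log2 ratio -0.52). Of all keratinocyte genes 9.11% were lower, with a median of -0.18. In suprabasal keratinocytes alone the ratios were 0.529 for Col17a1, 0.984 for Itgb4 and 1.23 for Col7a1, and the list median was 0.197, so of these 3 genes Col17a1 alone was well below 1 in suprabasal cells. Basal cells were 79.1% of untreated and 77.0% of treated keratinocytes. Col17a1, Itgb4, Itga6 and Itga3 are among the basal markers that divided basal from suprabasal cells. The suprabasal ratios, the list median there and the basal shares are therefore not independent of these genes. The laminin receptor Itga6 was 533 and 422 CPM and Itga3 193 and 197 CPM.

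On the wound list 8 of 25 members were lower, against 9.11% of all genes, and 3 higher, against 3.26%, with a median of -0.18 that equals that of all genes. On the barrier list, which holds the cornified envelope precursors, 4 of 29 members were higher, against 3.26%, and 1 lower, against 9.11% (median 0.14). S100a8 was 438 and 73.1 CPM (0.167, 0.158 to 0.176) and its partner S100a9 669 and 165 CPM (0.246, 0.237 to 0.255). The siderophore-binding protein Lcn2 was 122 and 31.5 CPM. The connexins Gjb2 and Gjb6 were 1256 and 403 CPM (0.321, 0.313 to 0.329) and 136 and 27.5 CPM (0.203, 0.186 to 0.222). The stress keratin Krt6b was 1673 and 761 CPM (0.455), or 0.514 after TMM scaling. In contrast Sprr1b was 1238 and 4571 CPM (3.69, 3.64 to 3.75) and Sprr2h 1145 and 2764 CPM (2.41, 2.37 to 2.46, or 1.53 in basal cells alone). The filament-aggregating protein Flg was 87.1 and 349 CPM (4.0, 3.77 to 4.25), with UMIs in 145 and 329 cells. Sprr1b UMIs were present in 1020 of 3330 and 3175 of 3914 keratinocytes.

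S100a8, S100a9 and Mmp9 are also neutrophil markers, and the summed neutrophil markers stood at 1279 and 253 CPM in keratinocytes. Of the 10 listed, Retnlg, Csf3r and Ly6g were at 0 in both libraries. The others, among them Cxcr2, G0s2, Hdc and Cxcr4, had UMIs in both. The part of neutrophil RNA in these values was not tested. Mmp9 was 136 and 6.47 CPM (0.0478, 0.0406 to 0.0559), in 77 and 21 cells.

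The heat shock genes Hspa1a and Hspa1b stood at 802 and 193 CPM (0.240, 0.232 to 0.248) and 822 and 236 CPM (0.287, 0.278 to 0.296). They were the 2 members lower of 14 on the heat shock list (median -0.13), against 9.11% lower and a median of -0.18 over all genes. On the list of EGF receptor ligands and growth factors 4 of 23 members were higher, against 3.26% of all genes, and 0 lower (median 0.16). They included Epgn (106 and 228 CPM, 2.16, 2.04 to 2.29) and Btc (4.71 and 14.4 CPM, 3.06). In suprabasal cells alone the Epgn ratio was 1.24, and in basal cells alone that of Btc was 1.35. Ptgs2, which makes prostaglandins, was 478 and 1335 CPM (2.79, 2.72 to 2.87) in 1076 and 2293 cells, the stromelysin Mmp10 78.5 and 222 CPM, the urokinase receptor Plaur 31.1 and 88.6 CPM, and the differentiation inhibitor Id3 78.5 and 219 CPM. The Plaur ratio was 1.43 in suprabasal cells alone, that of Mmp10 1.94 after thinning and that of Ptgs2 1.92 with every cell weighted equally. The glutathione peroxidase Gpx2 was 57.9 and 178 CPM (3.07, 2.86 to 3.31). Ptgs2 was 435 and 1204 CPM at 8 weeks and 499 and 1160 CPM at 52 weeks.

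Keratinocyte genes with the largest ratios had low levels throughout. Peg10, a retrotransposon-derived gene, had 1 and 69 UMIs, the metallothioneins Mt3 and Mt4 had 2 and 131 and 0 and 91 UMIs, the ubiquitin ligase Rnf183 3 and 117, the tight junction protein Cldn7 5 and 175, the imprinted RNA H19 3 and 85, and the methyltransferase-like Mettl7b 5 and 90. Serpini1, a serine protease inhibitor, had 2 and 63 UMIs, and its ratio with every cell weighted equally was 1.51. Of the replication helicase subunits, Mcm5 was 2.63 and 7.97 CPM and Mcm2 3.94 and 8.20 CPM, and thinned to 1000 UMIs the Mcm2 ratio was 0.995.

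In fibroblasts 462 of 10192 genes were higher (4.53%) and 376 lower (3.69%). Proteases of matrix turnover were among the higher ones. The collagenase Mmp13 (chr9:7272514-7283331) stood at 102 and 967 CPM (9.53, 8.50 to 10.7), with UMIs in 84 of 1144 and 203 of 940 cells. The stromelysin Mmp3 was 4084 and 10974 CPM (2.69, 2.63 to 2.74), Mmp19 21.8 and 84.3 CPM and the leukocyte protease inhibitor Slpi 1357 and 4073 CPM (3.00, 2.90 to 3.1). In the proteases and inhibitors list 6 of 27 members were higher and 3 lower. The aggrecanase Adamts5 was lower at 106 and 26.9 CPM (0.255, 0.202 to 0.320) and the inhibitor Timp1 at 206 and 90.9 CPM (0.442, 0.386 to 0.505). Mmp13 was 204 and 642 CPM at 8 weeks and 146 and 1319 CPM at 52 weeks.

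On the matrix list 3 of 31 members were lower, against 3.69% of all genes, and 0 higher, against 4.53%. Col3a1, which like Dcn below helped to set the lineage, was 287 and 86.8 CPM (0.302, 0.265 to 0.344). The collagen crosslinking oxidase Lox was 65.0 and 22.9 CPM (0.352, 0.270 to 0.455). The proteoglycan Dcn, which served as a lineage marker, was 6616 and 5759 CPM.

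The inflammatory chemokines of fibroblasts split. Of 35 listed members 9 were lower, against 3.69% of all genes, and 1 higher, against 4.53%. The acute phase protein Saa3 was 8113 and 1327 CPM (0.164, 0.159 to 0.169), the eosinophil attractant Ccl11 293 and 29.4 CPM (0.10, 0.0815 to 0.123), Ccl8 357 and 44.9 CPM (0.126, 0.106 to 0.148), Ccl5 216 and 58.8 CPM and Cxcl12, the ligand of CXCR4, 168 and 35.1 CPM. The pattern recognition protein Ptx3 was 614 and 218 CPM and the alarmin Il33 121 and 46.5 CPM. The neutrophil attractants Cxcl1 (6116 and 9875 CPM), Cxcl2 (6099 and 8563 CPM) and Cxcl5 (4268 and 5517 CPM) had ratios between 1.29 and 1.61 and did not pass 2-fold, nor did Ccl2 (5274 and 5817 CPM) and Il6 (550 and 573 CPM).

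Other fibroblast genes with the largest ratios were Arg2, the mitochondrial arginase (3 and 103 UMIs, 0.946 and 28 CPM), the calcium channel Cacna1g (2 and 63 UMIs), Fbxo2 (4 and 91 UMIs), the peptide hormone Cck (4.42 and 64.2 CPM, in 7 and 31 cells), the oestrogen sulphotransferase Sult1e1 (5.05 and 50.3 CPM), the steroid reductase Akr1c18 (6.94 and 65.0 CPM), the carbonic anhydrase Car4 (1.89 and 14.1 CPM) and the copper oxidase Heph (4.10 and 29.9 CPM). The 12 genes with the lowest ratios included the antiviral genes Phf11b (18.9 and 0.816 CPM), Oas2 (17.0 and 0.816 CPM), Gbp5 (25.2 and 1.36 CPM), Ifit3b (37.5 and 2.18 CPM) and Cmpk2 (17.3 and 1.36 CPM). Cornified envelope genes were counted in fibroblasts too, where 7 of 15 listed members were higher, against 4.53% of all genes, and 6 of the 7 were prone to free RNA. T cell markers summed to 39.1 and 205 CPM in fibroblasts, nearly all of it Trdc, and the part of these transcripts in the fibroblast results was not tested.

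In the 55 untreated and 54 treated macrophages 80 of 1168 genes were higher (6.85%) and 130 lower (11.1%), from 78175 and 97616 UMIs. Beside Akr1b3, Fxyd2 and H1f0 the higher genes included the prostaglandin synthase Ptgs2 (1586 and 5481 CPM, 3.46, 2.84 to 4.24, in 35 and 48 cells), the plasminogen activator inhibitor Serpinb2 (1394 and 4282 CPM, 3.07, 2.48 to 3.83) and the matrix protein Thbs1 (333 and 1014 CPM). Mmp13 was 1113 and 2643 CPM. Cytokines went both ways, with 5 of 25 listed members higher and 6 lower. Il1b was 2315 and 4938 CPM (2.13, 1.79 to 2.54) and Il1a 499 and 1024 CPM (2.05), while Tnf was 3390 and 1485 CPM (0.438, 0.355 to 0.539), Ccl2 11116 and 4671 CPM (0.420, 0.374 to 0.471) and Il6 333 and 92.2 CPM. With lineage taken from clusters the ratios were 1.43 for Il1b and 1.16 for Il1a, and thinned to 1000 UMIs that of Tnf was 0.685. With every cell weighted equally that of Ccl2 was 0.554. Tnf in macrophages was 2074 and 2965 CPM at 8 weeks and 1601 and 2483 CPM at 52 weeks.

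Of 11 listed monocyte and inflammatory phagocyte genes 6 were higher, against 6.85% of all genes, and 1 lower, against 11.1% (median log2 ratio 1.09). They included the arginase Arg1 (269 and 635 CPM, 2.36, 1.42 to 4.08) and the fungal lectin receptor Clec4e (665 and 1414 CPM, 2.13, 1.53 to 2.98), while the most abundant member, the chemokine Cxcl2, was 29933 and 37309 CPM. Of 13 resident macrophage genes 5 were lower, against 11.1% of all genes, and 0 higher (median -0.77). These were the folate receptor Folr2 (537 and 164 CPM, 0.305, 0.160 to 0.554), Ccl8 (5744 and 2080 CPM) and the complement genes C1qa, C1qb and C1qc, while the lipid carrier Apoe was 1266 and 2366 CPM.

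The interferon genes Cmpk2 (895 and 20.5 CPM, 0.0229, 0.00272 to 0.0858), Ifi27l2a (3428 and 563 CPM), Rsad2, the antiviral enzyme viperin (3236 and 1147 CPM) and Ly6a (1113 and 236 CPM) were lower in macrophages as well. For some macrophage genes with large ratios 1 cell held a large part of the UMIs. Of the genes higher with PBMC-sec, the largest cell held 75% of the treated UMIs of Dbi and 44% of those of Saa3. Slpi was also higher, and there the largest cell held 73% of the untreated UMIs, on the lower side of the ratio. The complement genes C1qa, C1qb and C1qc helped to define the lineage. C1qb UMIs were present in 38 of 55 untreated and 18 of 54 treated macrophages, at 1254 and 307 CPM, and Pf4 UMIs in 55 and 49. The part of this difference in cell make-up in the macrophage results was not tested.

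Dendritic or Langerhans cells, the antigen-presenting cells of dermis and epidermis, numbered 121 and 100, with 206 of 3289 genes higher (6.26%) and 278 lower (8.45%). The make-up of the lineage differed between the libraries. The Langerhans lectin Cd207 had UMIs in 60 of 121 untreated cells (49.6%, 40.4 to 58.8%) and 80 of 100 treated cells (80.0%, 70.8 to 87.3%), whereas the migration receptor Ccr7 had UMIs in 60 (49.6%, 40.4 to 58.8%) and 29 (29.0%, 20.4 to 38.9%). In keratinocytes, which should lack it, Ccr7 UMIs were in 0.541% and 0.153% of cells. Both genes are lineage markers, and the part of this make-up in the values that follow was not tested.

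Cytoskeletal genes of dendritic or Langerhans cells stood lower, with 9 of 18 listed members past 2-fold, against 8.45% of all genes, and 0 higher (median log2 ratio -0.99). Actb was 11587 and 4898 CPM (0.423, 0.397 to 0.450), the actin-binding proteins Pfn1 2759 and 1169 CPM, Cfl1 1536 and 746 CPM and Actn1 195 and 25.7 CPM (0.132, 0.0508 to 0.289). Tuba1a was 205 and 29.4 CPM. The chemokine Ccl5 was 1799 and 254 CPM (0.141, 0.108 to 0.181), in 27 and 7 cells. The protease inhibitors Serpinb6b and Serpinb9 were 459 and 66.2 CPM and 394 and 91.9 CPM, the cytokine signalling inhibitor Socs2 231 and 47.8 CPM and the receptor partner Ramp3 648 and 158 CPM.

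Higher genes of the same cells were the linker histones Hist1h1c, H1f0, H1fx (101 and 327 CPM) and Hist1h1e (117 and 324 CPM), the electron carrier Cyb5a (198 and 541 CPM, 2.72, 2.01 to 3.73) and the phosphatase Ptpre (58.6 and 199 CPM). The MHC class II list had 9 of 10 ratios above 1, beside a median log2 ratio of -0.03 over all genes, and 0 past 2-fold. The class II genes H2-Ab1, H2-Aa, H2-Eb1 and Cd74 are lineage markers, so their levels are not independent of the labels. Of the unfolded protein response list, 15 of 19 ratios were above 1 and 2 passed 2-fold, against 6.26% higher of all genes. These were the disulphide isomerases Pdia4 (16.3 and 69.9 CPM) and Pdia6 (81.3 and 188 CPM, ratio 1.51 with every cell weighted equally). Cryab had 5 and 113 UMIs, of which 96% came from 1 treated cell.

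T or innate lymphoid cells held Trdc, the constant chain of γδ T cell receptors, in 86 of 161 and 79 of 148 cells. They had 171 of 3254 genes higher and 171 lower (5.26% each). The cytotoxic granule protease Gzmb was 26.4 and 327 CPM (12.4, 5.03 to 39.5), with UMIs in 4 and 13 cells. Histone Hist1h2bc was 105 and 578 CPM (5.48, 3.38 to 9.33), in 16 and 47 cells. The lipid droplet gene Hilpda was 94.9 and 348 CPM (3.67, 2.15 to 6.57), the triglyceride-forming Dgat1 105 and 380 CPM (3.61), and the polyamine enzyme Odc1 was 121 and 573 CPM. With lineage taken from clusters the ratios were 1.33 for Odc1 and 1.85 for Dgat1. The T cell effector list had 4 of 16 higher and 2 lower. Il22 had 0 and 31 UMIs, of which 68% came from 1 cell, and Il2ra was 68.6 and 145 CPM.

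Lower genes of T or innate lymphoid cells included Tcrg-V5, the receptor segment of the epidermal γδ T cells (401 and 182 CPM, 0.454, 0.294 to 0.689), the cytokine receptor chain Il12rb2 (380 and 177 CPM), the actin capping subunit Capzb (817 and 364 CPM) and the secreted Lgals3bp (274 and 102 CPM). The cystatins Cstdc5 and Stfa1 were 1192 and 520 CPM and 575 and 220 CPM, beside summed keratinocyte markers of 7236 and 5255 CPM in these cells. With lineage taken from clusters the ratios were 0.607 for Cstdc5, 0.775 for Stfa1, 0.579 for Capzb and 0.522 for Tcrg-V5, and thinned that of Il12rb2 was 0.620. Gzmc was 3396 and 1205 CPM, and 95% of its untreated UMIs came from 1 cell, and its direction reversed under 3 alternatives.

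Vascular endothelial cells had 169 of 3528 genes higher (4.79%) and 324 lower (9.18%). Beside the NRF2 genes, the long noncoding RNA Neat1 was 1144 and 3613 CPM (3.16, 2.74 to 3.65), the proteoglycan Srgn 313 and 862 CPM, the stress gene Gadd45b 148 and 443 CPM (1.86 thinned) and the NRF2 partner Mafg 91.3 and 246 CPM. The largest cell held 36% of the treated Neat1 UMIs. Lower genes included the surface proteins Ly6e (1279 and 376 CPM, 0.294, 0.226 to 0.378) and Ly6a (1005 and 318 CPM), the ubiquitin ligase Rnf213 (304 and 62.6 CPM), Lgals9 (348 and 81.9 CPM), the proteasome activator Psme1 (270 and 72.3 CPM) and the nonclassical MHC gene H2-T23 (309 and 91.5 CPM).

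Of the endothelial adhesion and activation list, 4 of 16 members were lower, against 9.18% of all genes, and 0 higher (median -0.54). The nitric oxide synthase Nos3 was 178 and 77.1 CPM (0.432, 0.226 to 0.787) and the VEGF receptor Kdr, a lineage marker, 330 and 164 CPM. Thinned to 1000 UMIs the ratios were 0.711 for Nos3 and 0.685 for Kdr. Cells among the highest 5% for the unfolded protein response list were 37 of 83 untreated (44.6%, 33.7 to 55.9%) and 17 of 80 treated endothelial cells (21.3%, 12.9 to 31.8%). Without such cells 210 of 2367 genes compared were lower (8.87%), in place of 324 of 3528 (9.18%), so the share was nearly the same.

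Pericytes or smooth muscle cells numbered 18 and 32, and 94 of 790 genes were higher (11.9%) and 52 lower (6.58%). The interferon members Isg15 (953 and 309 CPM), Bst2 (921 and 56.2 CPM) and Ifitm3 (7397 and 2542 CPM, 0.344, 0.281 to 0.420) were the 3 compared, and all 3 were lower. On the heat shock list 5 of 12 members were higher. The chaperone Hspa1a was 493 and 2794 CPM (5.67, 3.35 to 10.3), in contrast to keratinocytes, and the small heat shock protein Hspb1 460 and 2092 CPM. The difference between these lineages was not tested. Ccl2 had 2 and 168 UMIs, but its ratio was 0.540 with lineage taken from clusters. The contractile markers that defined the lineage summed to 3189 and 6965 CPM.

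**Figure D4:**
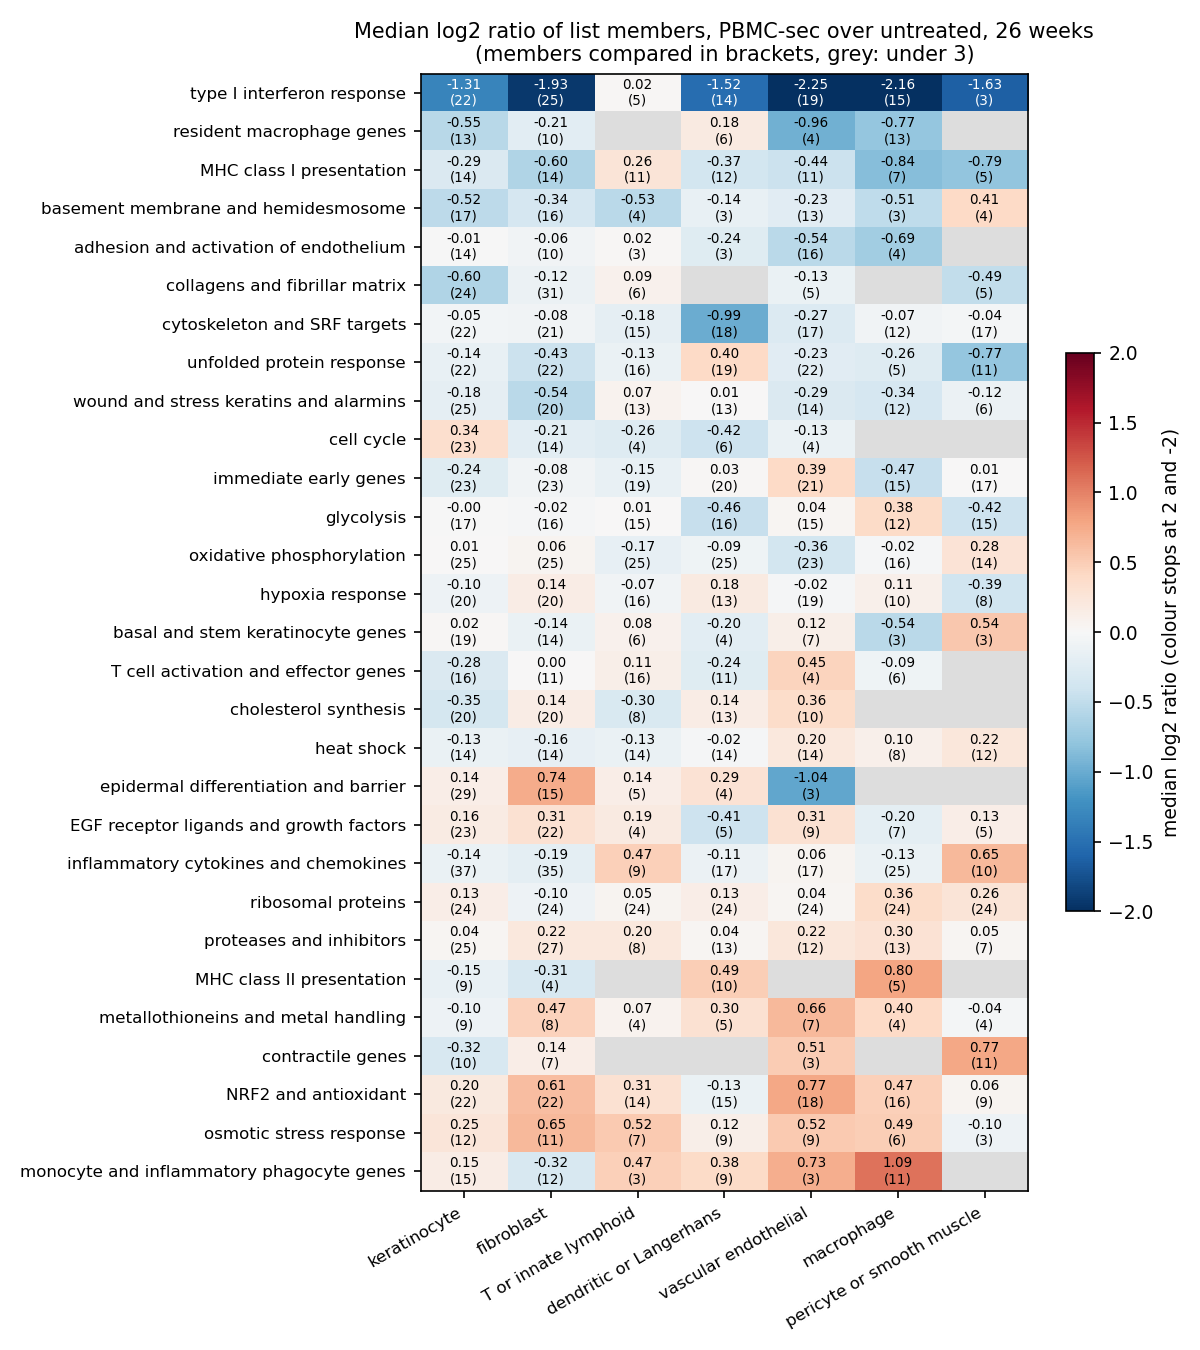
Median log2 ratio of PBMC-sec over untreated (colour and upper number) for 29 gene lists (rows) in 7 lineages (columns) at 26 weeks, with the number of members compared in brackets and grey where fewer than 3 were compared. The type I interferon row holds the lowest medians (-1.93 in fibroblasts, -2.25 in vascular endothelial cells), apart from 0.02 in T or innate lymphoid cells, and the NRF2 and osmotic rows reach 0.77 and 0.65.

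Ribosomal protein genes had 0 of 24 members past 2-fold in each of the 7 lineages. Glycolysis had 0 of 17 and oxidative phosphorylation 0 of 25 members past 2-fold in keratinocytes, and 0 of 16 and 0 of 25 in fibroblasts. Immediate early genes, which dissociation can induce, had 0 of 23 members past 2-fold in keratinocytes (median -0.24) and 0 of 23 in fibroblasts (median -0.08). In macrophages 2 of 15 were lower, against 11.1% of all genes. These were Fos (550 and 195 CPM, 0.354, 0.195 to 0.620) and Klf6 (1586 and 789 CPM). Vascular endothelial cells had 17 of 21 with a ratio above 1 and 1 higher, against 4.79% of all genes (median 0.39). In pericytes or smooth muscle cells 2 of 17 were higher, against 11.9% (median 0.01). The counts past 2-fold in these rarer lineages lie near the shares over all genes. Hypoxia genes had 0 of 20 members past 2-fold in fibroblasts. In keratinocytes 1 of 20 passed 2-fold, against 3.26% higher and 9.11% lower of all genes, with a median of -0.10.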

How the data were processed

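Deposited gene by barcode matrices of raw UMI counts were used for all 6 libraries. They were made with Cell Ranger 5.0.1, per the file headers, and aligned to mm10 (GRCm38), per the submitters' processing notes. The Chromium 3′ kit v3.1 comes from the labels. The counts are not normalized, and each library is 1 sample.

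From these counts, barcodes under 500 UMIs, under 300 genes or over 10% in mitochondrial UMIs were dropped. Each cell took the lineage with the highest scaled marker score (minimum 0.25, at least 2 markers detected), and was called mixed where the second score reached 0.6 of the first. The scoring rule was set after the data were seen, while the markers were listed earlier. Raw UMIs were summed per lineage and library, and the ratio of CPM was taken with an exact conditional binomial interval at 95% confidence, Poisson intervals for levels and Clopper-Pearson intervals for shares. Genes with at least 20 UMIs over both sums were compared, a count of 0 was set to 3 counts for a bound, and no test was made.

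Named genes were, per lineage, the 12 with the largest ratio each way among those past 2-fold with at least 50 UMIs in the higher sum, an interval excluding 1 and no excess outside the lineage, and list members past 2-fold. Members and lists were chosen with earlier results of these data known, and genes given that did not pass 2-fold, the linker histones outside that rule and Trdc were chosen after their values were seen. Of 598 list members in 29 lists, 7 were not analysed here. Clusters came from scanpy 1.11.5 (2000 variable genes, 30 components, resolution 1.5). Scrublet's own threshold called 0 doublets, so removing its highest scores (249 and 281 cells) was an alternative only. Thinning to 1000 UMIs left out 1010 and 680 cells. TMM factors came from edgeR 4.0.16, used for scaling alone. Gene positions are from GENCODE on GRCm38. Alternatives added after the data were seen left out genes with over 25% of UMIs in 1 cell, or took basal or suprabasal keratinocytes alone. Other software was Python 3.11.15, numpy 2.4.6, pandas 2.3.3, scipy 1.17.1 and matplotlib 3.10.9. The counting and interval steps were tested on simulated data. Some genes are not reported here.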

Additional observations from a re-analysis of the deposited data

Results flagged for a closer look

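The values below differed in direction between the 26-week pair and another age, and none of these differences was tested, since each age has 1 library a side. The keratinocyte share ratio was 1.107 at 26 weeks and 0.8205 at 8 weeks, and that of fibroblasts 0.7738 and 2.62. The 8-week untreated library is the one in which 46.71% of kept barcodes had near-identical profiles.

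In fibroblasts, 4 inflammatory or epithelial genes that were lower with PBMC-sec at 26 weeks were higher at 52 weeks. The 52-week ratio was 4.031 for Saa3, 8.328 for Ccl5, 2.153 for Ptx3 and 2.735 for the cystatin Csta2, against 0.1636, 0.272, 0.355 and 0.09453 at 26 weeks.

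In macrophages the 8-week ratio was 0.3951 for Saa3 and 0.2953 for Gpnmb, against 12.55 and 3.456 at 26 weeks, and the 52-week ratio of Retnla was 19.45 against 0.2943. Fabp4 in dendritic or Langerhans cells had ratios of 0.2477 at 26 weeks and 14.49 at 8 weeks. Gzmc in T or innate lymphoid cells had 0.3548 at 26 weeks, 88.86 at 8 weeks and 2.122 at 52 weeks. In vascular endothelial cells H2-T23 had 0.2965 at 26 weeks and 2.709 at 52 weeks, and Kdr 0.4956 at 26 weeks and 2.25 at 8 weeks. Hspb1 in pericytes or smooth muscle cells had 4.546 at 26 weeks and 0.3808 at 52 weeks.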

How the results depend on the processing

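No paired analysis was possible because each group is 1 library, and leaving out a replicate was not possible for the same reason. Of 158 recomputed gene counts 128 stayed within 1.5 times the value given, of 272 list medians 245 moved by less than their spread, and of 2460 single-gene ratios 7 reversed. Of 221 single genes followed, 162 were past 2-fold in every alternative in which they were compared. A gene that an alternative left out was not counted against it. The 162 thus include Il17c in keratinocytes and Cryab in dendritic or Langerhans cells, whose UMIs came mostly from 1 cell. The causes were not tested beyond what the alternative itself removes. The fibroblast share ratio was 0.6957 after thinning.

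Each alternative changed how many genes were compared, so shares are given beside the counts. With at least 50 UMIs over both sums, 272 of 11249 were higher in keratinocytes (2.42%). In fibroblasts 216 were higher and 225 lower of 8117 (2.66 and 2.77%), and in macrophages 28 and 38 of 476 (5.88 and 7.98%). Dendritic or Langerhans cells had 56 and 93 of 1496 (3.74 and 6.22%), and T or innate lymphoid cells 32 and 28 of 1217 (2.63 and 2.3%). Vascular endothelial cells had 47 and 62 of 1438 (3.27 and 4.31%), and pericytes 25 and 9 of 306 (8.17 and 2.94%). After thinning, 36 higher and 51 lower of 446 were called in macrophages (8.07 and 11.4%). Dendritic or Langerhans cells then had 77 and 137 of 1308 (5.89 and 10.5%), and T or innate lymphoid cells 107 and 106 of 1922 (5.57 and 5.52%). Vascular endothelial cells had 84 and 82 of 1271 (6.61 and 6.45%), and pericytes 30 and 15 of 218 (13.8 and 6.88%). With lineage by cluster, macrophages had 142 higher and 197 lower of 2037 (6.97 and 9.67%). Dendritic or Langerhans cells had 328 of 4635 higher (7.08%) and pericytes 99 of 1432 lower (6.91%). Without cells high for the unfolded protein response 210 of 2367 were lower in vascular endothelial cells (8.87%). Without genes mostly of 1 cell, 49 were higher and 19 lower of 482 in pericytes (10.2 and 3.94%).

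Among median log2 ratios in keratinocytes, the interferon list had -0.799 in suprabasal cells, and the osmotic list 0.047 thinned, 0.425 with TMM and 0.933 in suprabasal cells. The basement membrane list had -0.438 with at most 5% mitochondrial UMIs, -0.346 with TMM, -0.384 with cells weighted equally, -0.299 without cells high for the unfolded protein response and 0.197, a reversal, in suprabasal cells. Members of that list were among the markers that set the suprabasal cells apart, so this reversal is not independent of them. The wound list had -0.399 by cluster, -0.025 thinned, -0.008 with TMM and 0.008, a reversal, with cells weighted equally. The barrier list had 0.215 thinned, 0.311 with TMM, 0.338 with equal weights and 0.471 in basal cells. In fibroblasts thinning gave -0.334 for MHC class I and 0.433 for NRF2. The fibroblast cytokine list had 0.025 without the highest Scrublet scores, 0.083 by cluster, 0.052 both with at least 50 UMIs and without genes prone to free RNA, and 0.02 without genes mostly of 1 cell. Thinning gave -1.407 for interferon and 0.364 for cytokines in macrophages, and -0.868 for interferon in vascular endothelial cells.

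The reversed genes were Col7a1 in suprabasal keratinocytes (1.228), Mcm2 in thinned keratinocytes (0.9952), Gzmc in T or innate lymphoid cells (5.239 without the highest Scrublet scores, 33.03 by cluster, 6.308 without cells high for the unfolded protein response) and Ccl2 in pericytes (0.54 by cluster, 0.5614 thinned). Depth limits the rare lineages most, with 1168 genes compared in macrophages and 790 in pericytes against 12803 in keratinocytes.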

Other observations

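Trdc, the constant chain of the γδ T cell receptor, had UMIs in 59 of 1144 untreated fibroblasts (5.16%, 3.95 to 6.60%) and in 167 of 940 treated ones (17.8%, 15.4 to 20.4%). Its level in fibroblasts was 36.0 and 203 CPM, against 786 and 664 CPM in T or innate lymphoid cells. In keratinocytes, which should lack it, Trdc UMIs were present in 0.300% and 0.664% of cells at median depths of 2580 and 4738 UMIs, against 2272.5 and 3398 UMIs in fibroblasts. The T cell co-receptor genes Cd3e and Cd3g had UMIs in 0 and 2 of the 1144 untreated and in 2 and 0 of the 940 treated fibroblasts. The gene was chosen after its values were seen.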
